A study of Mus musculus with 2 samples.

Results

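A set of 10 genes that specify cranial neural crest, carry its cells out of the neural tube or mark its derivatives was followed in RNA of the mouse embryonic hindbrain. The genes were Tfap2a, Tfap2b, Foxd3, Snai1, Snai2, Twist1, Ets1, Erbb3, Ednrb and Mitf, chosen by symbol from outside the Sox and Pax families, and all 10 were found among the 43346 annotated genes of both gene tables. The material was hindbrain of B6NCrl embryos at 10.5 days, healthy and with no mutation named in the labels, both sexes pooled. Replicate 1 pooled 69 embryos and replicate 2 pooled 51 embryos, with 10 ng of total RNA and synthetic spike-ins entering each library. The labels give both pools 1 donor ID, so the spread between them describes these 2 pools only, and with 1 group there was no comparison of conditions and no test.

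The neural crest arises at the border of the neural plate. Its cells are specified there by transcription factors of the Tfap2, Foxd, Sox and Pax families, lose contact with the neuroepithelium under factors of the Snai and Twist families, and leave the dorsal neural tube. Crest from the hindbrain streams into the pharyngeal arches as mesenchyme and gives rise to neurons and glia of cranial ganglia and to pigment cells. At 10.5 days much of the hindbrain crest has left the tube, and several of the genes are also used by other cells of the head: Tfap2a by surface ectoderm, Tfap2a and Tfap2b by some dorsal interneurons, Ets1 by endothelium, Ednrb by neural progenitors, and Mitf by the pigment epithelium of the eye. In a dissected tissue, fewer cells of a type and less RNA per cell cannot be told apart.

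The annotated genes held 38170090 expected counts in replicate 1 and 36382245 in replicate 2. Levels are TPM, the transcript abundance per length scaled to a fixed total in each library, and a gene was called detected where both libraries gave it 1 TPM or more. By that rule 33% of annotated genes and 58.8% of protein-coding nuclear genes were detected. Regional genes of the hindbrain were present: 5 of 6 in a short list added after the data were seen (Gbx2, Irx2, Irx3, Hoxa2, Hoxb2 and Egr2) were detected, the exception being Egr2 at 0.45 and 1.72 TPM in replicates 1 and 2. All 8 genes of neural progenitors were detected as well, from Fabp7 at 684.61 and 437.41 TPM to Sox1 at 2.01 and 2.18 TPM.

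Start sites bear on several results below, because Mitf and Ednrb are each transcribed from more than 1 first exon. The RefSeq promoter table (GRCm38.p6, the assembly also called mm10) held 10 windows for 7 of the 10 genes, each from 250 bases before to 50 bases after a start site. Snai2, Ets1 and Erbb3 had no window in that table. Of these windows, 5 are printed. The 3 held for Mitf and that at the downstream start of Ednrb are printed because isoform values of these genes follow below. The start of Snai1 is printed as that of a factor gene whose window holds the E-box of its own family. The annotated starts of Mitf-204 and Ednrb-201 lie outside these windows. An annotated transcript measured here starts within 18 bases of the start site of each of the 5 printed windows. The windows of Foxd3, Twist1 and Tfap2b, each at the start of an annotated transcript as well, and the 2 of Tfap2a are not printed. Capitals mark matches, on either strand, to the palindrome GCCNNNGGC bound by Tfap2 proteins, to the Snai E-box CACCTG (or its complement CAGGTG), to the Mitf E-boxes CATGTG (or CACATG) and CACGTG, and to the cAMP response element TGACGTCA. No 2 marked matches overlap in the printed windows.
Mitf, far upstream start (Mitf-202) (chr6:97806808-97807107, plus strand): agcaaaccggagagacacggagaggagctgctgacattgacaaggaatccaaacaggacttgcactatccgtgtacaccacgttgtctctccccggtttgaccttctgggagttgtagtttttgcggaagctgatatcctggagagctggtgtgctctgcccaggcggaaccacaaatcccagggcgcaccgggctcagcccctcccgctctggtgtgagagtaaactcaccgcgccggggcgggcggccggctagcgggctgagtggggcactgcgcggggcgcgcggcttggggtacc
Mitf, middle start (Mitf-203) (chr6:97929567-97929866, plus strand): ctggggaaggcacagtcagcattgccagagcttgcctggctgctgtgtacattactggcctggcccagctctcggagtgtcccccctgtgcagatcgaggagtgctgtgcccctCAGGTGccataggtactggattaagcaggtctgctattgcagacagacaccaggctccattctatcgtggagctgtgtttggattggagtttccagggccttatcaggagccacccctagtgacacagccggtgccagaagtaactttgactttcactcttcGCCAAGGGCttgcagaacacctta
Mitf, melanocyte start (Mitf-201) (chr6:97991533-97991832, plus strand): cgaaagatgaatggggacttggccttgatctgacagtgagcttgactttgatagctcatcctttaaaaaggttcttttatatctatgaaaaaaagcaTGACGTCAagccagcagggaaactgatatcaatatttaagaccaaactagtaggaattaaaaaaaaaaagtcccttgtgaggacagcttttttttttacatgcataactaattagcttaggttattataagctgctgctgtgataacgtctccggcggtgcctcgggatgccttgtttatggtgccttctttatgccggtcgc
Ednrb, downstream start (Ednrb-202) (chr14:103843652-103843951, minus strand): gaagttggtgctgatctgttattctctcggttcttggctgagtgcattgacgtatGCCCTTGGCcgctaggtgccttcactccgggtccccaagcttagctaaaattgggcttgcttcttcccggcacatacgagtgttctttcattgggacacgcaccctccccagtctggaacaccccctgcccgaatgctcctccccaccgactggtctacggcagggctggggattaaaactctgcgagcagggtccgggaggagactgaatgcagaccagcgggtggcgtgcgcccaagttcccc
Snai1 (Snai1-201) (chr2:167537945-167538244, plus strand): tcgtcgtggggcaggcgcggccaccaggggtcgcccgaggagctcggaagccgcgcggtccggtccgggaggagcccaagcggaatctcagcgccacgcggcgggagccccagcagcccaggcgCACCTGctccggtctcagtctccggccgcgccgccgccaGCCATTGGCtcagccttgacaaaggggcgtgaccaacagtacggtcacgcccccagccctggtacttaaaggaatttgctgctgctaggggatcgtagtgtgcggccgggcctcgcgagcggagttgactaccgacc

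The 3 windows of Mitf differed in composition as well as in motifs. GC content was 62.7% at the far upstream start, with 22 CpG pairs, and 40% at the melanocyte start, with 8 CpG pairs, where the median over all 32851 windows was 52.7% and 7 pairs. The melanocyte window held TGACGTCA with its first base at -153, a motif found in 1.79% of all windows; the Foxd3 window held it too, at -233, together with the Mitf E-box CACGTG at -217. The far upstream window held none of the motifs searched. The middle window held CAGGTG at -136 and a Tfap2 palindrome at 27. The Snai1 window held CACCTG at -126, the sequence to which Snai proteins bind as repressors, and a Tfap2 palindrome at -87. The Ednrb window held a Tfap2 palindrome at -195. The Tfap2 palindrome was in 16.6%, the Snai E-box in 20.2% and the Mitf E-boxes in 20.4% of all windows, so single matches are common and are given as a description of the letters.

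Of the 10 genes, 9 were detected in both libraries, from Ednrb at 64.6 ± 12.3 TPM to Mitf at 1.25 ± 0.233 TPM (mean ± SD, n = 2, as throughout). Foxd3, at 0.645 ± 0.346 TPM, was below 1 TPM in both. The genes spanned a 183-fold range in replicate 1 and a 62.8-fold range in replicate 2. By mean level the order was Ednrb, Tfap2b, Snai1, Ets1, Snai2, Twist1, Erbb3, Tfap2a, Mitf and Foxd3. Of these, 3 pairs of neighbours overlapped between the pools and so were not ordered beyond their spread: Ednrb and Tfap2b, Tfap2b and Snai1, and Erbb3 and Tfap2a. Within each library Ednrb was still above Tfap2b, whereas Tfap2b and Snai1, and Erbb3 and Tfap2a, changed places. The other neighbours kept their order in both libraries. Twist1 and Erbb3 were nearly level in replicate 2, at 11.48 and 11.40 TPM, where their counting intervals overlapped.

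**Figure D1:**
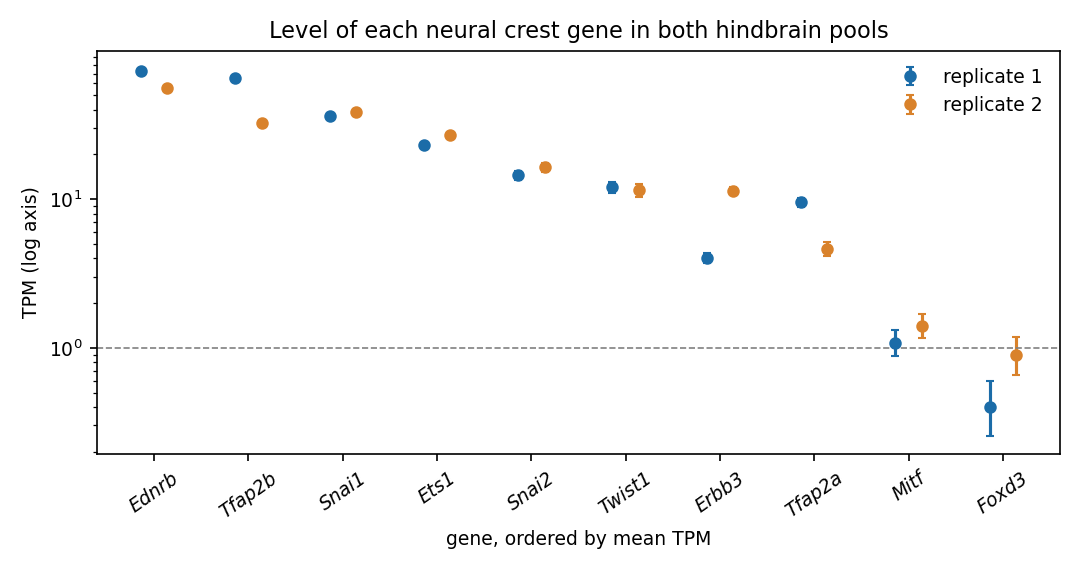
TPM on a log axis of each gene in replicate 1 (blue) and replicate 2 (orange), with 95% counting intervals that cover counting error only; the dashed line is 1 TPM. Ednrb is highest in both pools and Foxd3 is below the line in both. Tfap2b, Erbb3, Tfap2a and Foxd3 are the genes whose pools lie furthest apart.

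Tfap2a and Tfap2b encode related transcription factors that act at the neural plate border and in early crest. Tfap2a (chromosome 13, 40715302 to 40738376, minus strand) was at 9.54 TPM in replicate 1 (766 counts) and 4.62 TPM in replicate 2 (333 counts). Tfap2b (chromosome 1, 19208914 to 19238576, plus strand) was at 64.88 TPM in replicate 1 (3506 counts) and 32.41 TPM in replicate 2 (1649 counts). Both were higher in replicate 1, and Tfap2b stood at 6.8 times the level of Tfap2a in replicate 1 and 7.02 times in replicate 2. Their ratios between the pools, as log2 of replicate 1 over replicate 2 after TMM scaling (counts scaled so that the typical gene is equal), were 1.11 for Tfap2a (95% counting interval 0.92 to 1.30) and 1.00 for Tfap2b (0.91 to 1.08), and scaled on the spike-ins they were 0.30 and 0.19.

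The spike-ins made up 13% of all TPM in replicate 1 against 7.82% in replicate 2. Scaling on them put the median ratio of protein-coding genes at a mean of 1 TPM or more at -0.81, against -0.01 under TMM scaling, so ratios are given relative to the typical gene. With 1 library on each side a ratio has no replicate check. Of the 4002 nuclear protein-coding genes at 5 to 20 TPM on average, 4.22% were at least 2-fold higher in replicate 1, as Tfap2a was. Tfap2b, 1.99-fold higher in replicate 1, lay just under that limit, which 1.33% of the 4662 genes with a mean of 20 to 100 TPM passed in that direction.

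Genes of dorsal interneurons were also higher in replicate 1. In that list of 9 genes all 9 had a ratio above 0 (8 of 9 when scaled on the spike-ins, the exception being Tlx3 at -0.23), and the summed level was 112 TPM in replicate 1 against 40.7 in replicate 2. Ptf1a, the factor of inhibitory interneurons, was at 13.18 and 5.15 TPM, Lbx1, a factor of dorsal interneurons, at 7.07 and 1.18 TPM, and Gad2, an enzyme that makes GABA, at 10.69 and 1.02 TPM; no gene of the list was at 0. Of its 8 detected genes 7 were at least 2-fold higher in replicate 1, these 3 together with Pax2 (ratio 1.34), Lhx1 (1.63), Lhx5 (1.47) and Gad1 (1.99), while Slc32a1, at 1.08 and 0.30 TPM, was not detected in both. Surface ectoderm, the other tissue that uses Tfap2a, went the other way, with 6 of 8 genes lower in replicate 1 (7 of 8 scaled on the spike-ins). Its summed level was 101 TPM in replicate 1 against 149 in replicate 2. Krt8, its highest gene, was at 37.54 and 51.05 TPM. Under TMM scaling Krt14, the lowest detected at 1.53 and 1.27 TPM, and Krt5, at 1.77 and 0.14 TPM, were higher in replicate 1. The part of these cell types in the ratios of Tfap2a and Tfap2b was not tested.

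The isoforms of this pair bear on their levels. Tfap2a was carried mainly by Tfap2a-201, with 91.7% of the gene's TPM in replicate 1 and 93.5% in replicate 2, and Tfap2a-202 held 8.28% and 6.48%. Both are protein-coding and differ in their first exon. An annotated antisense gene, Gm26688, overlaps Tfap2a on the plus strand (40727808 to 40735162) and was at 5.03 and 1.76 TPM. Whether the counting used strand is not stated, so it is not known whether reads of Tfap2a and of Gm26688 were told apart where they overlap.

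Tfap2b was split over 5 transcripts. Tfap2b-202 held 39.7% and 31.2% of TPM in replicates 1 and 2, Tfap2b-201 held 11.7% and 13.1%, and Tfap2b-204 held 14.3% and 20.2%, all protein-coding. The other two, Tfap2b-205 and Tfap2b-203, are short transcripts annotated as retaining an intron. Together they held 34.3% of TPM in replicate 1 and 35.6% in replicate 2 from 8.67% and 8.59% of the counts, since TPM divides by length. The protein-coding transcripts alone summed to 42.6 and 20.9 TPM, which in replicate 1 is above and in replicate 2 below the level of Snai1.

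**Figure D2:**
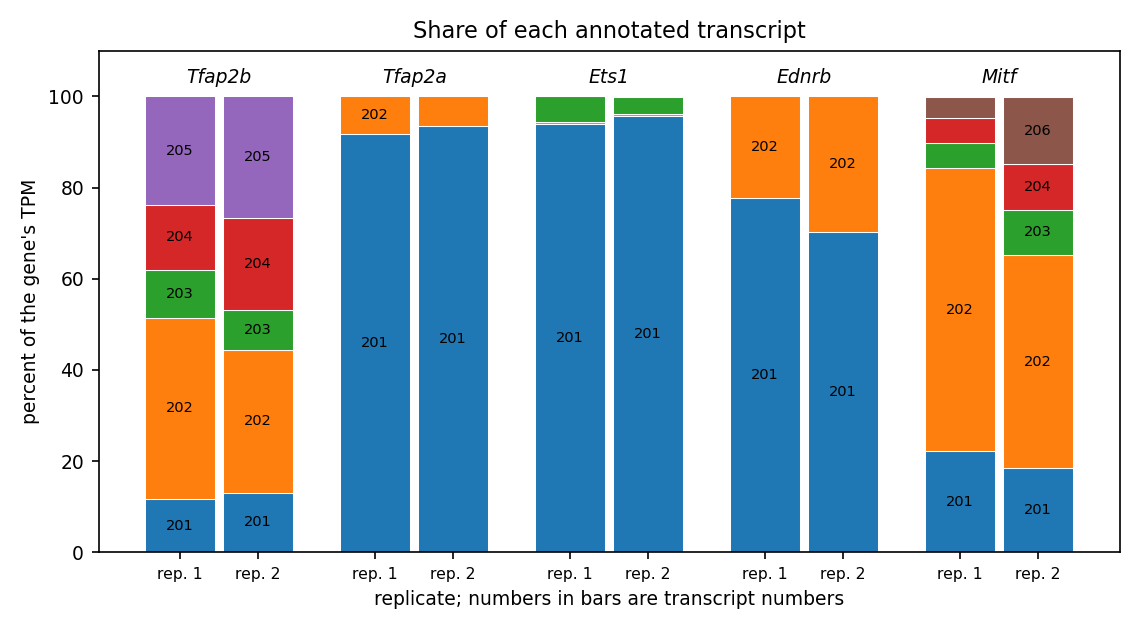
Percent of each gene's TPM in each annotated transcript, in replicate 1 (left bar) and replicate 2 (right bar), for the 5 genes with more than 1 transcript; numbers in the bars are transcript numbers. Tfap2a and Ets1 rest on a single main transcript, Tfap2b is spread over 5, and the shares of Mitf differ most between the pools.

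Foxd3, a repressor that keeps early crest cells unspecialised and holds back pigment cell fate, was the lowest of the 10. Foxd3 (chromosome 4, 99656299 to 99658622, plus strand, 1 exon) was at 0.40 TPM in replicate 1 from 24 counts and at 0.89 TPM in replicate 2 from 48 counts. The 95% counting intervals were 0.256 to 0.595 and 0.656 to 1.18 TPM and did not overlap. The ratio was -1.03 (counting interval -1.86 to -0.36), an interval that is wide at this depth. At a mean of 0.2 to 1 TPM, 8.56% of 1927 protein-coding genes were at least 2-fold lower in replicate 1. Its relatives Foxd1 and Foxd2 were higher, at 6.25 and 5.88 TPM and at 2.51 and 1.89 TPM in replicates 1 and 2, and Foxd4 was not detected (0.33 and 0.18 TPM).

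Genes of delamination and migration differed little between the pools under TMM scaling. Snai1 and Snai2 encode zinc finger repressors of cell adhesion genes. Snai1 (chromosome 2, 167538195 to 167542814) had 36.22 TPM in replicate 1 and 38.41 in replicate 2, a ratio of -0.02 (-0.13 to 0.09). Snai2 (chromosome 16, 14705852 to 14709385) was at 14.46 and 16.34 TPM, a ratio of -0.11 (-0.26 to 0.04). Snai1 was 2.5 times the level of Snai2 in replicate 1 and 2.35 times in replicate 2. The third family member, Snai3, was near absent at 0.05 and 0.14 TPM, from 2 and 5 counts.

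Twist1 (chromosome 12, 33957671 to 33959829), a basic helix-loop-helix factor of crest mesenchyme, was at 12.00 and 11.48 TPM, a ratio of 0.13 (-0.06 to 0.32). Its paralog Twist2 was higher, at 15.75 and 16.69 TPM. Of these 3 crest genes, none had a counting interval that left out 0 under TMM scaling. Scaled on the spike-ins Snai1, Snai2 and Twist1 were at -0.82, -0.91 and -0.67. Head mesenchyme genes had a summed level of 670 TPM in replicate 1 and 605 in replicate 2. The part of head mesenchyme in the levels of Snai1, Snai2 and Twist1 was not tested.

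Ets1 (chromosome 9, 32636221 to 32757820), a factor of cranial crest delamination and of blood vessels, had 23.14 TPM in replicate 1 and 26.99 in replicate 2, a ratio of -0.17 (-0.25 to -0.10). Ets1-201 held 94% and 95.7% of its TPM. Ets1-202, which lacks 1 of the exons, held 0.432% and 0.333%, from about 5.02 and 4.14 counts. All 10 endothelial genes were detected, from Egfl7 (62.69 and 85.01 TPM) to Tek (7.03 and 7.43 TPM), with a summed level of 204 and 229 TPM and a median ratio of 0.04, and the part of endothelium in the level of Ets1 was not tested. The related endothelial factor Fli1 was at 18.41 and 22.05 TPM, Ets2 at 15.64 and 20.14 TPM, Elk3 at 10.57 and 11.30 TPM, and Erg at 1.79 and 1.81 TPM.

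Other delamination genes were likewise close between the pools under TMM scaling. Of 10 genes in this list 9 were detected, none of them 2-fold apart, with a median ratio of -0.04. Scaled on the spike-ins all 10 were lower in replicate 1, with a median of -0.85, where the median protein-coding gene was at -0.81. Of those detected, Cdh6, Zeb2 and Cdh1 were then at -1.53, -1.02 and -1.01. Zeb1 and Zeb2, repressors that act beside the Snai factors, were at 27.93 and 31.78 TPM and at 35.29 and 44.01 TPM in replicates 1 and 2. Vim, an intermediate filament shared with neuroepithelium, was the highest at 893 ± 50.4 TPM and Cdh1, the epithelial cadherin, the lowest detected, at 7.18 and 8.82 TPM. Cdh6, a cadherin of premigratory crest, had the ratio furthest from 0 of the detected genes, -0.73, at 14.94 and 25.95 TPM.

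Of the receptors, Erbb3 was lower in replicate 1 under either scaling, whereas the direction of Ednrb depended on the scaling (0.45 by TMM and -0.35 on the spike-ins). Erbb3, the neuregulin receptor on which Schwann cell precursors depend (chromosome 10, 128567523 to 128589652, minus strand), was at 4.01 TPM in replicate 1 (642 counts) and 11.40 TPM in replicate 2 (1635 counts). The pools do not overlap in their counting intervals, and the ratio of -1.44 (-1.57 to -1.31) corresponds to a 2.71-fold higher level in replicate 2; scaled on the spike-ins it was -2.24. At a mean of 5 to 20 TPM, 0.975% of protein-coding nuclear genes were at least 2-fold higher in replicate 2. Erbb3 had 1 annotated transcript of 28 exons, so its isoforms were not measured here.

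The partners of Erbb3 did not share its ratio. Erbb2, its co-receptor, was at 18.65 and 19.66 TPM, so that Erbb3 stood at 0.215 times the level of Erbb2 in replicate 1 and 0.58 times in replicate 2. The ligand Nrg1 was at 9.93 and 9.84 TPM. Erbb4, a receptor of neurons, was at 3.03 and 1.90 TPM. Its ratio of 1.38, taken from 340 and 121 counts, is wider than that gap in TPM, which is less than 2-fold. Nrg3, a neuronal ligand below 1 TPM in replicate 2, was at 1.20 and 0.60 TPM with a ratio of 1.23. Egfr was at 1.60 and 3.24 TPM from 335 and 325 counts, so the gap lies in the effective length by which TPM divides. Nrg2 and Nrg4 were not detected.

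Among other crest and ganglion genes, Sox10, the factor of crest glia and pigment cells, had a ratio of similar size, with 7.15 TPM in replicate 1 and 22.82 in replicate 2 (ratio -1.61). Cdh19, a cadherin of Schwann cell precursors that was below 1 TPM in replicate 1, was at 0.34 and 1.14 TPM (-1.76). The list of crest glia was not uniform: 3 of the 6 genes analysed were higher in replicate 1 (2 of 6 scaled on the spike-ins), among them Ngfr at 41.23 and 24.21 TPM (0.83), and the summed level of the 6 was 51.8 and 51.4 TPM. Foxs1 and Dhh were not detected, and Gfra3 was at 1.70 and 2.22 TPM.

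Genes of cranial ganglia gave a mixed picture too. All 10 analysed were detected, 6 were lower in replicate 1 (9 scaled on the spike-ins), and the summed level was 213 and 230 TPM. Neurog2, a proneural factor that the hindbrain itself also uses, was at 39.95 and 16.80 TPM (1.31), the only gene of the 10 at least 2-fold apart. Neurog2 was also the highest of the list in replicate 1, Isl1 (28.05 and 53.63 TPM) the highest in replicate 2, and Ret the lowest in both at 2.86 and 3.47 TPM. Epcam of surface ectoderm was at 13.17 and 31.67 TPM (-1.20). The part of glia, ganglia or ectoderm in the ratio of Erbb3 was not tested.

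Ednrb, the endothelin receptor needed by pigment cell and enteric precursors (chromosome 14, 103814625 to 103844402, minus strand), was the highest of the 10 in both pools. It was at 73.29 TPM (7535 counts) in replicate 1 and 55.87 TPM (5162 counts) in replicate 2. The ratio was 0.45 (0.40 to 0.51) under TMM scaling and -0.35 scaled on the spike-ins, so its direction depends on the scaling. Its 2 transcripts are annotated with the same coding sequence and differ at their 5′ end; the deposited model of Ednrb-201 has 3878 bases and that of M21 has 4107, so its start in M4 may differ. Ednrb-201 was at 56.96 and 39.24 TPM, and Ednrb-202, which starts at the printed downstream window, was at 16.33 and 16.63 TPM.

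In TPM the difference between the pools lay in Ednrb-201, which held 77.7% of the gene in replicate 1 and 70.2% in replicate 2. For Ednrb-201 the authors' deposited interval of TPM was 51.9 to 59.6 in replicate 1 and 33.3 to 41.8 in replicate 2, and for Ednrb-202 it was 12.5 to 19.6 and 13.1 to 21.1. Neural progenitors, which also use Ednrb, had a summed level of 1375 and 1078 TPM, with 5 of 8 genes higher in replicate 1 (0 of 8 scaled on the spike-ins). Their part in the ratio of Ednrb was not tested.

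The ligand Edn3, which signals through Ednrb to crest cells, was at 10.49 and 13.00 TPM, while Edn1 was at 0.74 and 0.92 TPM and Edn2 at 0.08 and 0.00 TPM (3 and 0 counts). The related receptor Ednra, used by crest mesenchyme of the arches, was at 14.43 and 15.68 TPM, so Ednrb stood at 5.08 and 3.56 times its level. Ece1 and Ece2, which cut endothelins to their active form, were at 26.93 and 31.73 TPM and at 30.24 and 36.33 TPM. Of the 13 ligands, receptors and enzymes listed beside Erbb3 and Ednrb, 8 were detected, and their median ratio over all 13 was -0.05.

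**Figure D3:**
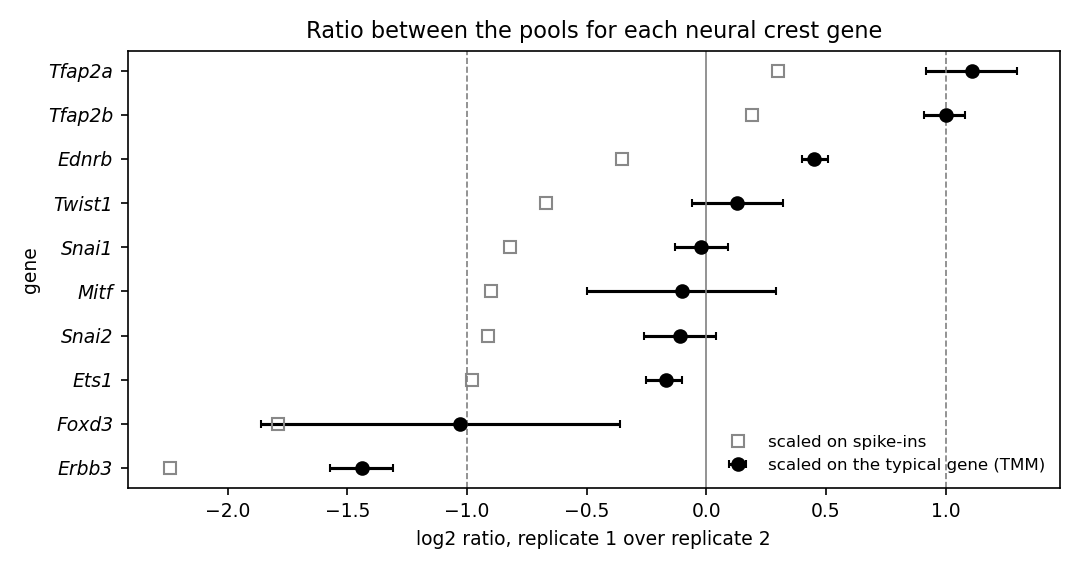
Log2 ratio of replicate 1 over replicate 2 for each gene, scaled on the typical gene with 95% counting intervals (black) and scaled on spike-ins (grey squares); dashed lines mark a 2-fold difference. Tfap2a (1.11) and Tfap2b (1.00) lie to the right and Erbb3 (-1.44) and Foxd3 (-1.03) to the left, and spike-in scaling moves every gene to the left.

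Mitf, the master factor of pigment cells, was close to 1 TPM. Mitf (chromosome 6, 97807052 to 98021349, plus strand) had 1.08 TPM in replicate 1 and 1.41 in replicate 2, from 107 and 108 counts, with counting intervals of 0.885 to 1.31 and 1.16 to 1.7 TPM. The intervals overlapped, and the ratio was -0.10 (-0.50 to 0.29). The form that starts furthest upstream, Mitf-202, had the highest share of the annotated forms, with 62% of TPM in replicate 1 and 46.8% in replicate 2. Mitf-201, which starts at the melanocyte promoter printed above and is the form of pigment cells, was at 0.24 and 0.26 TPM from an estimated 12 and 11.7 counts.

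At this depth the melanocyte form was barely resolved: the authors' deposited interval of its TPM was 0.0184 to 0.422 in replicate 1 and 2.07e-05 to 0.43 in replicate 2. Mitf-203 and Mitf-204 received equal shares, 5.56% each in replicate 1 and 9.93% each in replicate 2, and Mitf-206, which retains an intron, held 4.63% and 14.9%. A further Mitf transcript of 101 bases received 0 counts, yet its posterior mean TPM in the deposited tables was 18.1 and 20.1, since its effective length was 2 bases. That transcript held 93.5% and 92.7% of the gene's posterior mean TPM.

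Pigment cell genes downstream of Mitf were mostly not detected. Of 11 melanocyte genes, 4 were: Kit at 20.36 and 17.11 TPM, Pmel at 5.85 and 5.97 TPM, Trpm1 at 1.56 and 5.03 TPM (ratio -2.17) and Dct at 1.37 and 1.72 TPM. Kit, a receptor of melanoblasts, is also used by other cells. The others were below 1 TPM in both pools: Tyr, Tyrp1, Mlana, Slc45a2, Mc1r, Gpr143 and Oca2. Tyr, the enzyme that begins melanin synthesis, was at 0.13 and 0.17 TPM, and Tyrp1 had 0 counts in replicate 1 and 13 counts in replicate 2.

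Eye and pigment epithelium genes, the other place of Mitf, were likewise low, with a summed level of 0.55 and 2.78 TPM over the 5 genes analysed. None of the 5 was detected in both; Rpe65 had 0 counts in both pools and Rax was at 0.21 and 1.79 TPM. Of the relatives of Mitf, Tfe3 was the highest at 29.22 and 26.80 TPM, Tfeb was at 2.95 and 1.84 TPM, and Tfec was at 1.54 and 0.98 TPM. Among the relatives of the Tfap2 pair, Tfap2c was at 2.64 and 4.62 TPM, and Tfap2d (0.49 and 0.42 TPM) and Tfap2e (1.40 and 0.62 TPM) were not detected in both. Over the list of 15 relatives of the member factors, 10 were detected and none of these was 2-fold apart.

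The ratios of the 10 genes ran from -1.44 (Erbb3) to 1.11 (Tfap2a). Of the 9 with a mean of at least 1 TPM, 2 were at least 2-fold apart, Tfap2a higher in replicate 1 and Erbb3 higher in replicate 2, where 5.15% of 12993 protein-coding nuclear genes were (4.03% higher in replicate 1 and 1.12% higher in replicate 2). With Foxd3 the count was 3 of 10. Their median ratio was -0.06, near that of all genes at 1 TPM or more (-0.01), because genes on both sides balance and 6 of 10 lay within 0.5 of 0. Snai1, Snai2, Twist1, Ets1 and Mitf were closest to 0.

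Other factors of the crest network were mostly detected too. Of 12 such transcription factors 11 were detected, where 58.8% of protein-coding nuclear genes were. They ran from Id2 at 277.52 and 297.14 TPM to Pax7 at 2.09 and 1.95 TPM. The median ratio of the 12 was 0.11, and Sox10 was the only detected one 2-fold apart. Msx1 was at 169.38 and 158.70 TPM, Sox9 at 110.69 and 77.24 TPM and Pax3 at 43.64 and 40.14 TPM. These are levels of the whole dissected hindbrain, and the part of crest cells in them was not tested. Of 13 head mesenchyme genes analysed 12 were detected, led by Col3a1 at 311.11 and 312.70 TPM, with a summed level of 670 and 605 TPM. Of the 12 detected, 2 genes, Dlx5 (2.74 and 12.21 TPM) and Alx1 (2.83 and 8.15 TPM), were at least 2-fold lower in replicate 1. Barx1, at 2.28 and 2.44 TPM, was the lowest of the 12, and Dlx6 was not detected.

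**Figure D4:**
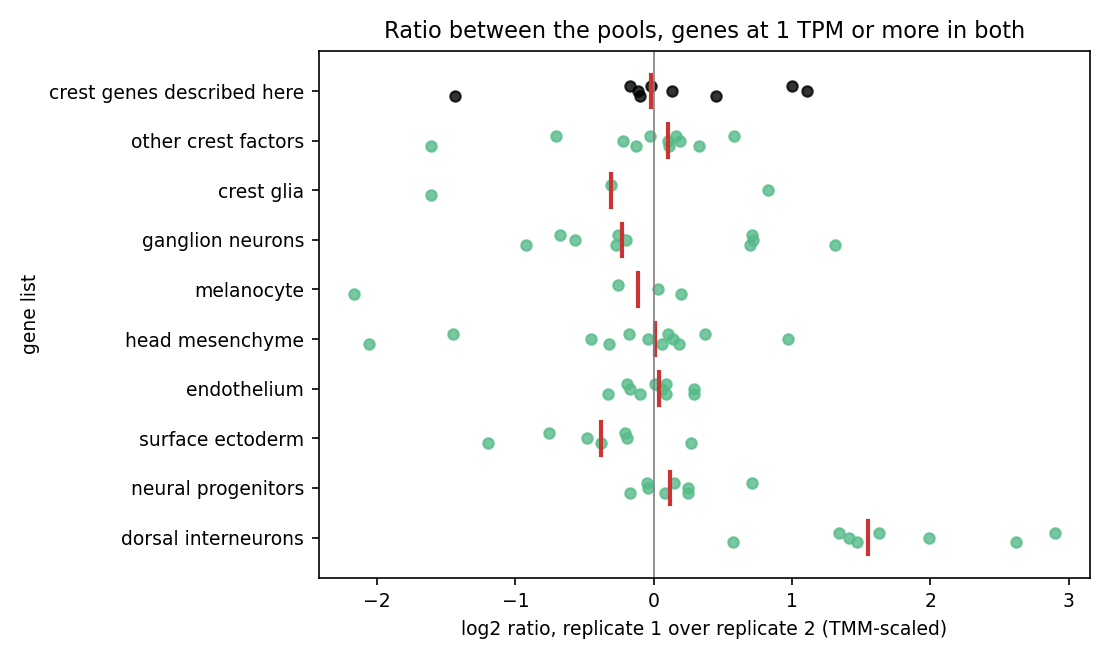
Log2 ratio of replicate 1 over replicate 2 of each gene detected in both pools, by list, with the list's median as a red bar. The crest genes (black, top) lie on both sides of 0, the endothelial genes lie near 0, and all the dorsal interneuron genes lie above 0.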

How the data were processed

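RNA of 2 pools of mouse hindbrain was compared. The deposited tables give, per the file headers, expected counts (estimated counts in which shared reads are divided between genes), TPM, FPKM and posterior mean TPM. The deposited transcript tables also give a percent of the gene for each isoform; shares here were recomputed from TPM. The authors' interval bounds of TPM are quoted as deposited, and their level is not stated. Per the deposited file notes the assembly was mm10 and the annotation M4; the sources used here do not name the aligner, the quantifier or the use of strand. Gene and transcript identifiers, with the version removed, were looked up in GENCODE M21 (also mm10), which gave symbols for 42462 of 43346 genes (98%), and coordinates are those of M21.

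Expected counts were rounded. Ratios are log2 of replicate 1 over replicate 2 from edgeR 4.0.16 (R 4.3.3) with TMM scaling and a prior count of 2, and spike-ins and tRNA rows were left out of library sizes. The exact binomial interval of a ratio and the exact Poisson interval of a level cover counting error only. On simulated counts with 200 changed genes among 43346, log2 ratios of 2, 1, -1 and -2 came back with medians of 2.00, 0.96, -1.02 and -1.99. The changed genes were drawn only from genes with many counts, so genes with few counts, such as Foxd3, were not checked. Alternatives were DESeq2 1.42.0 size factors, total counts, spike-ins, other prior counts, pseudocounts, FPKM and posterior mean TPM. The 10 genes, the lists and the rule for naming genes (all members, their partners and paralogs, the highest and lowest of each list, genes not detected and genes 2-fold apart) were chosen with earlier results of these data known; a few other genes were named after their values were seen. Some genes of the lists are not reported here and were left out of the lists' counts and sums. Promoter windows came from RefSeq. Figures used matplotlib 3.10.9.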

Additional observations from a re-analysis of the deposited data

How the results depend on the processing

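Detection of the crest genes kept within 8 to 10 of 10 under the alternatives run: 8 by FPKM or at 2 TPM, where Mitf was lost beside Foxd3, and 10 by a minimum of 10 expected counts; without either replicate it stayed between 9 and 9. The count of genes at least 2-fold apart was 4 with DESeq2 size factors or total counts, where Tfap2b passed the limit. With spike-in scaling it was 2, Erbb3 and Foxd3, since Tfap2a fell to 0.30. It was also 2 with a prior count of 5 and as a ratio of TPM with a pseudocount of 0.1, where Foxd3 was at -0.95 and -0.99. As a ratio of TPM with a pseudocount of 1, which shrinks low genes, it was 1. Shares over all genes were taken only at the main settings, so none stands beside these counts. With spike-in scaling the median protein-coding gene at a mean of 1 TPM or more was itself at -0.81, so that count is not comparable with the others. The median ratio of the 10 crest genes moved from -0.06 to -0.86 with spike-in scaling and lay between -0.13 and -0.04 otherwise. Outside spike-in scaling Erbb3 stayed between -1.48 and -1.31, Tfap2a between 0.91 and 1.13 and Foxd3 between -1.08 and -0.43. The number of transcripts with at least 10% of their gene was 17, 16 without either replicate, and 15 by posterior mean TPM, where the share of Mitf-202 was 3% against 54.4%. No paired analysis was possible because there is 1 group. Depth limits Foxd3 and the isoforms of Mitf most.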
